A study of Homo sapiens with 6 samples.

Results

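The UE7T-9 line consists of mesenchymal stem cells from human bone marrow that were immortalized by hTERT and the E7 protein of human papillomavirus. RNA sequencing covered 3 libraries of UE7T-9 SHC4, which carry SHC4 in a lentiviral vector with a CMV promoter, and 3 libraries of UE7T-9 Cont, both kept in DMEM. According to the study's text the controls carry GFP in the same type of vector, and puromycin selection followed infection with these vectors. The sample labels, however, name the controls Nontarget with the genotype WT. The design note speaks of cell clones, and the labels of biological replicates 1 to 3, but neither says whether the libraries of a group came from separate infections, clones or cultures. The p-values below therefore measure only the spread between these libraries, which may be technical. The genes described here are 33 listed genes of the unfolded protein response and the integrated stress response, out of 28181 genes in the files. They were taken by symbol as 14 chaperones and folding factors of the endoplasmic reticulum (ER), 3 stress sensors, 4 transcription factors, 3 factors of ER-associated degradation and 9 ATF4 targets and feedback genes. All 33 were found once and passed the filter on low values, a mean normalized count of at least 1.

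The unfolded protein response matches the folding capacity of the ER to its protein load. The sensors IRE1 (gene ERN1), PERK (gene EIF2AK3) and ATF6 sit in the ER membrane: IRE1 splices the mRNA of XBP1, PERK phosphorylates the initiation factor eIF2, and ATF6 is cleaved to release a transcription factor. XBP1 and ATF6 drive genes for chaperones and degradation, while phosphorylated eIF2 lowers general translation but favours that of ATF4, the factor at the centre of the integrated stress response, which other eIF2 kinases also trigger when amino acids are short or heme is lacking. Cells that secrete much matrix protein, such as mesenchymal stem cells, depend on a high folding capacity. Gene counts do not separate spliced from unspliced XBP1 and do not show protein, cleavage or phosphorylation. In bulk RNA, fewer cells of a type and less RNA per cell cannot be told apart.

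The value given for each library is the normalized count, the reads of a gene divided by the size factor of the library. The 6 libraries held between 18144993 and 27721397 reads in genes, so that 3 reads correspond to a normalized count of 2.50 to 3.53, and pairs of libraries correlated between 0.962 and 0.98 across genes on the log2 scale. SHC4 itself had normalized counts of 56.5 to 157 in the controls and of 119166 to 155006 in UE7T-9 SHC4, so that the labelled groups differed in it as named. The mesenchymal markers THY1, ENG and NT5E were present in all libraries (lowest value 2286). PTPRC, the pan-leukocyte marker, stayed at or below 6.82, the endothelial cadherin CDH5 at or below 1.18, and the epithelial markers EPCAM and CDH1 at or below 4.92 and 17.6. CD34, CD14, ITGAM and PECAM1 lay between 7.80 and 88.3. Fold changes are log2 values of UE7T-9 SHC4 over UE7T-9 Cont from limma on log2(normalized count + 1), a scale that understates the change of genes with few reads, and a gene was called where the p-value after Benjamini-Hochberg adjustment lay below 0.05.

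Some members carry in their promoters letter patterns known from these responses, and a few are printed to show the elements known to bind ATF6 and XBP1 in chaperone genes and ATF4 in amino acid genes. Promoters from 250 bases before to 50 bases after a RefSeq gene start (GRCh38.p14) were searched on both strands, and 32 of the 33 members had an entry. PDIA3 had none. The ER stress response element ERSE, made of CCAAT and CCACG with 9 bases of any kind between them, is bound by ATF6 or XBP1 together with NF-Y. ERSE was found in 7 members (HSPA5, HSP90B1, CALR, CANX, PDIA6, CRELD2 and XBP1), against 0.0769% of 35116 promoters. The shorter form ERSE-II, made of ATTGG and CCACG with 1 base of any kind between them, was found in 3 members (HYOU1, SDF2L1 and HERPUD1), against 0.0541% of the promoters. The C/EBP-ATF element TGATGNAA, which ATF4 binds with a C/EBP partner, was found in 4 members (ASNS, CHAC1, ATF3 and HERPUD1), against 3.62% of the promoters. Only 2 of the 9 ATF4 targets, ASNS and CHAC1, had it. A member was counted if any of its promoter entries matched, whereas the shares are of single promoter entries, so the units differ. No printed match overlapped a match to another of these patterns. A match is only a match of letters, and the members were listed for the pathways in which these elements were described. Each window below reads 5′ to 3′ along the strand of its gene, with the element, or its reverse complement where it faces the other way, in capitals.
HSPA5, ERSE, chr9:125241376-125241424, minus strand: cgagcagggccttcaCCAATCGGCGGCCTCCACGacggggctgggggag
PDIA6, ERSE, chr2:10812838-10812886, minus strand: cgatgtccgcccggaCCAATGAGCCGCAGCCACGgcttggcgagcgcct
HSP90B1, ERSE, chr12:103930201-103930249, plus strand: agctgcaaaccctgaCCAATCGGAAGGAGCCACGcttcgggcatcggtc
XBP1, ERSE, chr22:28800588-28800636, minus strand: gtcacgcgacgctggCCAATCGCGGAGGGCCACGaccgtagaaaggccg
HYOU1, ERSE-II reversed, chr11:119057259-119057299, minus strand: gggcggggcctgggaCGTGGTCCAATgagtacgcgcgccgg
HERPUD1, ERSE-II, chr16:56932010-56932050, plus strand: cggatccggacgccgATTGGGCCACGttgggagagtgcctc
ASNS, C/EBP-ATF, chr7:97872454-97872491, minus strand: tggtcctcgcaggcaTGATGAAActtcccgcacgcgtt
CHAC1, C/EBP-ATF reversed, chr15:40953247-40953284, plus strand: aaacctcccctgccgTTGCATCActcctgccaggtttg

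The comparison of UE7T-9 SHC4 with UE7T-9 Cont asked whether stress response genes differed in cells that overexpress SHC4, an adaptor protein of the Shc family that couples receptor tyrosine kinases to signaling. No member passed the test. Of the 33 members, limma called 0 (0.0651% of 23040 genes tested), edgeR on the recovered reads 0 (0.0694% of 15859 genes) and DESeq2 on the recovered reads 0 (4.14% of 16153 genes). The smallest adjusted p among the members was 0.20 in limma, 0.171 in edgeR and 0.082 in DESeq2, each with Benjamini-Hochberg adjustment and each for DNAJB11. At an unadjusted p below 0.05, limma had 5 members (15.2%, against 14.4% of all genes tested), all with a negative fold change, a direction in which 6.96% of all genes passed. edgeR had 4 members at that level (17.6% of all genes tested) and DESeq2 6 (16.7% of all genes tested). Among genes whose mean normalized count reached 100, as it did for every member except ASNS, the limma share in either direction was 18.9%. By sign alone, 28 members had a negative and 5 a positive fold change, whereas 49.7% of all genes tested were positive. The 5 positive members were PDIA3, ATF4, HERPUD1, DDIT4 and PHGDH. The median log2 fold change was -0.22 over the members and -0.0040 over all genes, and for the members it was -0.099 without UE7T-9 Cont replicate 2 and -0.11 without UE7T-9 SHC4 replicate 2. DESeq2 and edgeR gave a median of -0.13 over the members. Under library size scaling the median of all genes moved to -0.10, and 28 members still lay below that median. The number with a positive fold change ranged from 2 to 9 when single libraries were left out: it was 9 without UE7T-9 Cont replicate 2, 8 without UE7T-9 SHC4 replicate 2 and 2 without UE7T-9 Cont replicate 3.

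**Figure D1:**
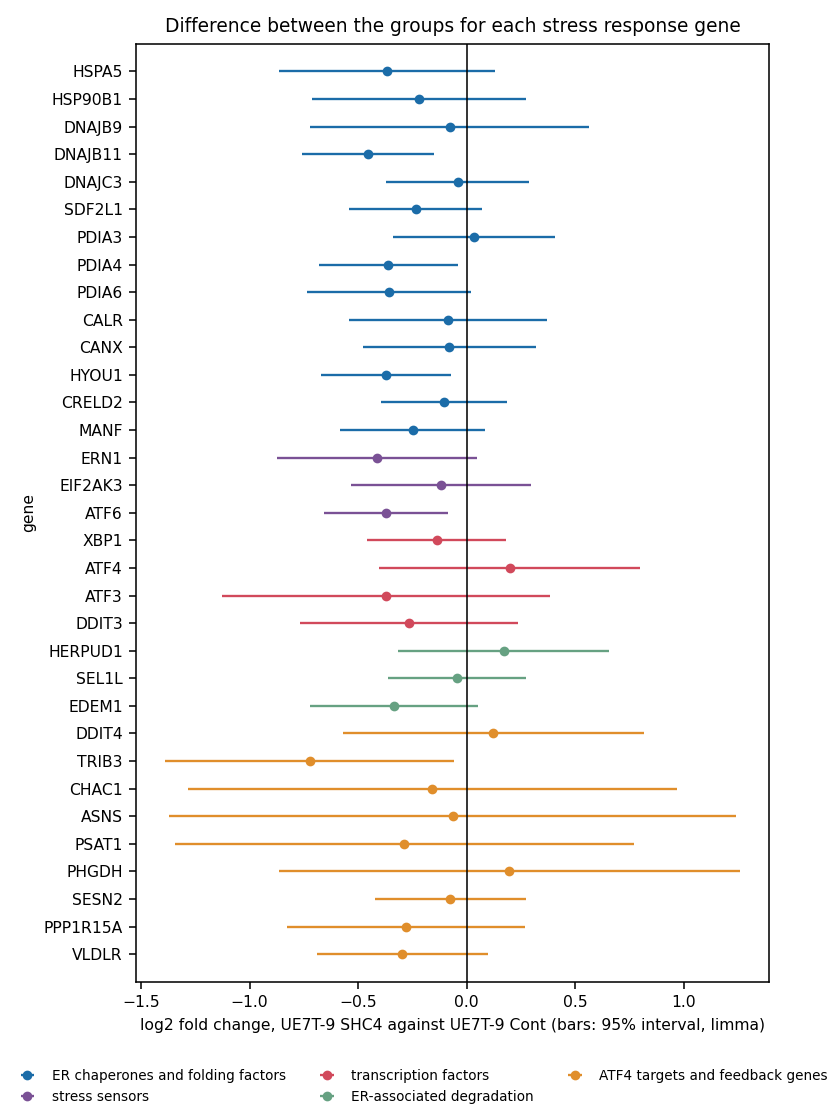
Log2 fold change of each of the 33 members (UE7T-9 SHC4 over UE7T-9 Cont, limma, n = 3 libraries per group), with bars for the 95% interval and colours for the role of the gene. Most points lie left of 0, 28 of 33, and the widest intervals are those of ASNS, CHAC1, PSAT1 and PHGDH.

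Scaled by the merged length of all annotated exons, which allows levels of different genes to be compared only roughly, the ER chaperones led the list. A gene whose merged exons are longer than its transcripts in these cells gets a level that is too low. CALR, a lectin chaperone for glycoproteins, had the highest mean level at 13983 normalized counts per kb, followed by HSPA5, the Hsp70 chaperone of the ER lumen also known as BiP, at 6220 and by HSP90B1, its Hsp90 counterpart, at 5814 per kb. CANX, the membrane-bound relative of CALR, reached 3655 per kb and PDIA3, a disulfide isomerase that works with both lectins, 3294 per kb. ATF4 was the first gene outside the chaperones, at rank 6 with 2637 per kb. The sensors lay far lower, with ATF6 at 174, EIF2AK3 at 109.6 and ERN1 at 27.9 per kb. ASNS, asparagine synthetase, was lowest at 10.3 per kb. Of the ASNS exon bases, 44.6% lie in exons of the gene AC079781.5, whose normalized counts were 3.52 to 18.3, and how the counting treated shared bases is not given in the sources used here, so its level may be too low.

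**Figure D2:**
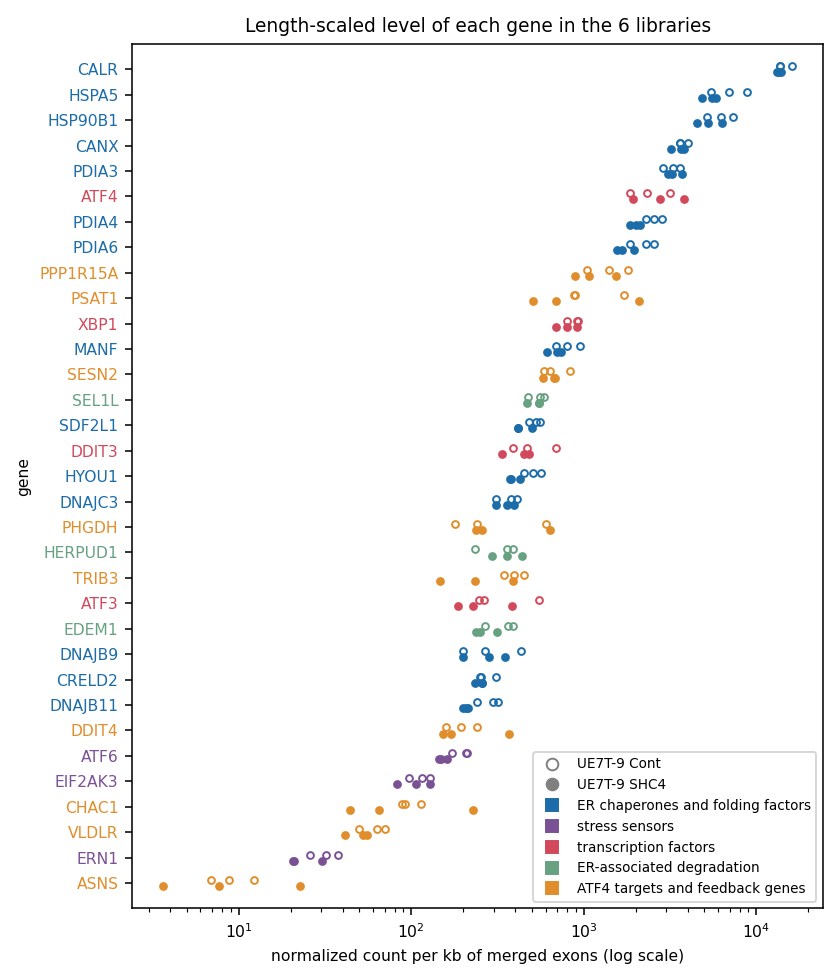
Normalized count per kb of exon on a log axis for each member in each of the 6 libraries, with genes in order of their mean. CALR stands at the top at a mean of 13983 per kb, and ERN1 and ASNS at the bottom at 27.9 and 10.3 per kb.

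Of the 14 chaperones and folding factors, 13 had a negative fold change (median -0.23) and 0 passed the test in either direction. HSPA5 (ENSG00000044574, chr9:125234853-125241330, minus strand, GRCh38 positions of GENCODE 29 here and below) had normalized counts of 21240, 34490 and 26987 in control replicates 1, 2 and 3 (the order used throughout) and of 21597, 18873 and 22648 in the UE7T-9 SHC4 replicates. The groups overlapped, because UE7T-9 Cont replicate 1 lay below UE7T-9 SHC4 replicates 1 and 3, while UE7T-9 Cont replicate 2 stood well above every other library. The means were 27572 ± 6645 and 21039 ± 1949 (SD, n = 3 each), which gives a log2 fold change of -0.37 (SE, the standard error, 0.22, limma adjusted p = 0.483). The fold change was -0.19 without UE7T-9 Cont replicate 2 and -0.54 without UE7T-9 Cont replicate 1. HSP90B1 ranged from 24406 to 34436 in the controls and from 21391 to 29708 in UE7T-9 SHC4, again with the highest value in UE7T-9 Cont replicate 2.

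For 3 chaperones the groups did not overlap, and in each the UE7T-9 SHC4 libraries were the lower ones. DNAJB11 (ENSG00000090520, chr3:186567403-186585800, plus strand), a J-domain co-chaperone that hands unfolded proteins to HSPA5, had normalized counts of 1382, 1705 and 1829 in the controls and of 1222, 1149 and 1191 in UE7T-9 SHC4. Its log2 fold change was -0.45 (SE 0.13, limma adjusted p = 0.20), and the UE7T-9 SHC4 libraries were close together (1187 ± 37.0, SD, n = 3). Without UE7T-9 Cont replicate 1 the fold change was -0.57 and limma called DNAJB11 (adjusted p = 0.0253, with adjusted p between 0.0253 and 0.588 over all alternatives), in a fit that called 5.68% of the genes tested. PDIA4, a disulfide isomerase, had 7506, 9319 and 8331 in the controls and 6070, 6590 and 6888 in UE7T-9 SHC4 (log2 fold change -0.36, SE 0.14, limma adjusted p = 0.299). HYOU1, a nucleotide exchange factor of HSPA5, had 3460, 4341 and 3927 in the controls and 3265, 2872 and 2900 in UE7T-9 SHC4 (log2 fold change -0.37, SE 0.13, limma adjusted p = 0.263). Its lowest control and its highest UE7T-9 SHC4 library were near each other. Over all roles 4 members (12.1%) did not overlap between the groups, the fourth being ATF6, and all of them were lower in UE7T-9 SHC4. Of all genes tested, 10.2% were lower without overlap and 19.3% did not overlap in either direction (12.4% and 23.5% of genes whose mean reached 100), so the share of the members is near the background.

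The remaining chaperones overlapped between the groups. Their log2 fold changes ran from -0.36 for PDIA6, another disulfide isomerase, to 0.033 for PDIA3. MANF and CRELD2, stress-induced secreted factors, had -0.25 (-0.13 without UE7T-9 Cont replicate 2) and -0.10, and SDF2L1, a partner of DNAJB11, had -0.24. The lectin chaperones had -0.087 for CALR and -0.079 for CANX. CALR had 36953, 43521 and 36966 in the controls and 36734, 35772 and 37748 in UE7T-9 SHC4. DNAJB9, a co-chaperone that restrains IRE1, had -0.079 and varied most among the chaperones, from 568 to 1228 in the controls and from 567 to 987 in UE7T-9 SHC4. DNAJC3, an inhibitor of PERK as well as a co-chaperone, had -0.042, and without UE7T-9 Cont replicate 2 or UE7T-9 SHC4 replicate 1 its sign and that of DNAJB9 turned positive. Sequence shared with other genes limits some of these values: 39.2% of the 25-base words of PDIA3 occur in other genes, with PDIA3P1 sharing the most. The share was 24.3% for HSP90B1, 24.3% for PDIA6, 23.7% for HSPA5 and 23.1% for DNAJB11. Of the PDIA3 exon bases, 18.9% lie in exons of other genes, with ELL3 covering the most.

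All 3 sensors had negative fold changes, with a median of -0.37, and 0 passed the test. ATF6 (ENSG00000118217, chr1:161766294-161964070, plus strand) had normalized counts of 1353, 1635 and 1658 in the controls and of 1139, 1174 and 1266 in UE7T-9 SHC4. Every UE7T-9 SHC4 library lay below every control, and the means were 1549 ± 169.8 and 1193 ± 65.5 (SD, n = 3 each), which gives a log2 fold change of -0.37 (SE 0.13, limma adjusted p = 0.246). ERN1 had 281, 409 and 348 in the controls and 228, 226 and 328 in UE7T-9 SHC4 (log2 fold change -0.41, SE 0.20, limma adjusted p = 0.40), with UE7T-9 SHC4 replicate 3 inside the range of the controls. EIF2AK3 ranged from 530.3 to 696 in the controls and from 447 to 699 in UE7T-9 SHC4, a range that enclosed the controls.

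The transcription factors overlapped between the groups. XBP1 had 2776, 2789 and 2407 in the controls and 2770, 2078 and 2427 in UE7T-9 SHC4 (log2 fold change -0.14, SE 0.14). ATF4 had 7913, 5856 and 4624 in the controls and 9557, 4842 and 6987 in UE7T-9 SHC4, so that its highest library in each group was replicate 1. Its log2 fold change of 0.20 (SE 0.27, limma adjusted p = 0.78) became -0.041 without UE7T-9 SHC4 replicate 1. ATF4 is regulated mainly at translation, and 34.5% of its 25-base words occur in other genes, with ATF4P3 sharing the most. ATF3, a stress-induced repressor, had 1061, 2225 and 993 in the controls and 923, 757 and 1543 in UE7T-9 SHC4. DDIT3, the gene of the pro-apoptotic factor CHOP, had 509.8, 903 and 616 in the controls and 628, 439.5 and 590.4 in UE7T-9 SHC4. UE7T-9 Cont replicate 2 was the highest library for XBP1, ATF3 and DDIT3, and UE7T-9 SHC4 replicate 2 the lowest. Of the DDIT3 exon bases, 39.6% lie in exons of other genes, with MARS covering the most. MARS had 2331 to 4061 normalized counts, so the DDIT3 values are uncertain.

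Of the 3 degradation factors, HERPUD1, which organizes the ubiquitin ligase complex at the ER membrane, had 1848, 2004 and 1202 in the controls and 2267, 1507 and 1856 in UE7T-9 SHC4 (log2 fold change 0.17, SE 0.22). EDEM1, which marks misfolded glycoproteins by trimming mannose, had 1810, 2610 and 2454 in the controls and 1608, 1693 and 2126 in UE7T-9 SHC4 (log2 fold change -0.33, SE 0.17). SEL1L, the adaptor of the ligase HRD1, lay between 4451 and 5598 in all libraries, with a fold change of -0.045. The groups overlapped in all of them.

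**Figure D3:**
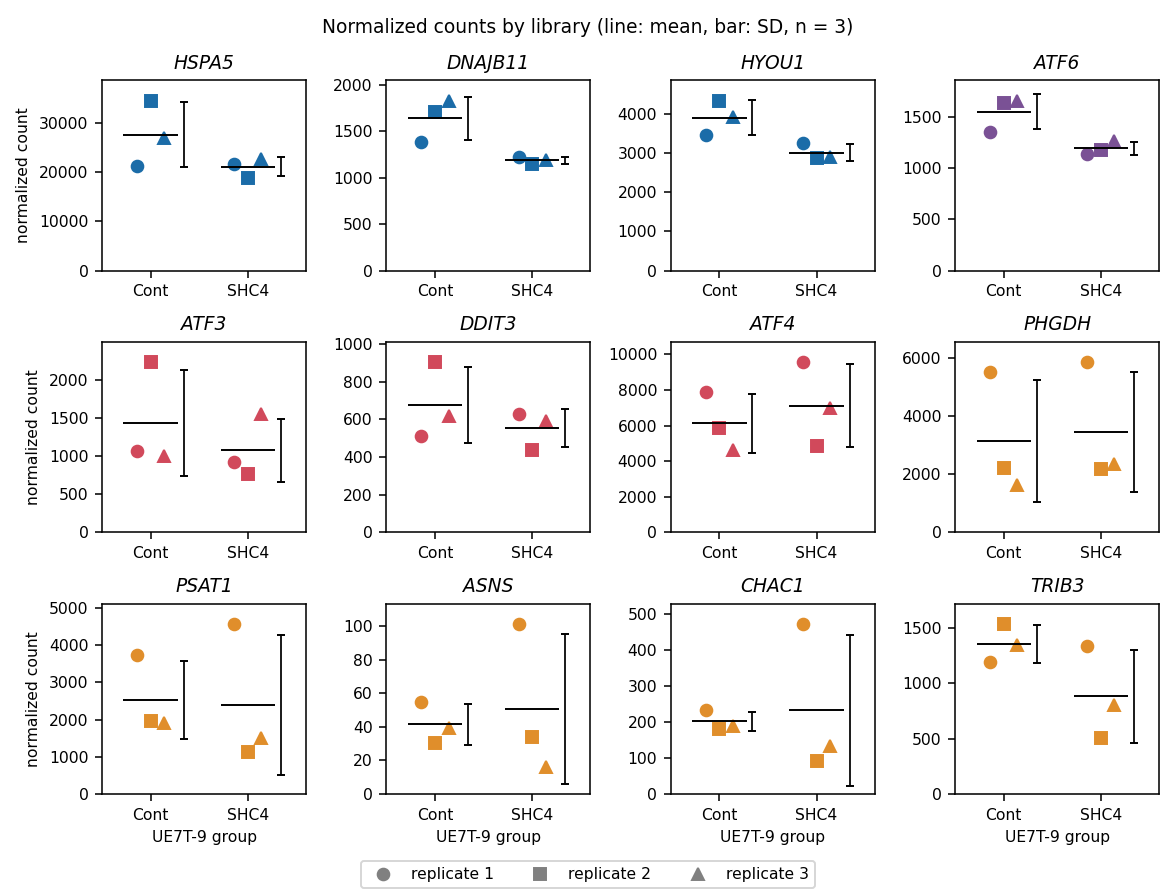
Normalized counts of 12 members in each library (point shape: replicate) with the mean (line) and SD (bar, n = 3) of each group, each panel on its own axis from 0. The points of the groups separate for DNAJB11, HYOU1 and ATF6, whereas replicate 1 of both groups stands above the other libraries for PHGDH and PSAT1.

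The ATF4 targets had the widest spread of the member groups within UE7T-9 SHC4, but not within UE7T-9 Cont, where the transcription factors spread more. The median SD on the log2 scale was 0.70 in UE7T-9 SHC4 and 0.29 in UE7T-9 Cont for these 9 genes, against 0.38 and 0.40 for the transcription factors, 0.137 and 0.188 for the chaperones, 0.28 and 0.35 for all genes tested and 0.156 and 0.188 for all genes whose mean reached 100. ASNS had normalized counts of 54.6, 30.6 and 39.3 in the controls and of 101, 34.1 and 16.3 in UE7T-9 SHC4, a 6.2-fold range within UE7T-9 SHC4 that rests on 14 to 115 reads. CHAC1, which degrades glutathione, had 233, 181 and 189.9 in the controls and 472, 90.7 and 134 in UE7T-9 SHC4. PSAT1 and PHGDH catalyse steps of serine synthesis. PSAT1 had 3740, 1950 and 1910 in the controls and 4566, 1116 and 1506 in UE7T-9 SHC4, and PHGDH had 5531, 2207 and 1643 in the controls and 5848, 2192 and 2355 in UE7T-9 SHC4. Of the 25-base words of PSAT1, 20.8% occur in other genes, with PSAT1P3 sharing the most. DDIT4, an inhibitor of mTORC1, had 492, 401 and 328 in the controls and 753, 316 and 350.5 in UE7T-9 SHC4, and 41.2% of its exon bases are shared with DDIT4-AS1. In all 5 of these genes, and in ATF4, the pair of highest libraries was replicate 1 of UE7T-9 Cont with replicate 1 of UE7T-9 SHC4.

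This pattern of replicate 1 held for 5 of 9 ATF4 targets (55.6%) and 6 of all 33 members, against 12.0% of all genes tested and 16.5% of genes whose mean reached 100. It was seen in 0 of 14 chaperones. The labels do not say what a shared replicate number stands for. None of the 5 genes differed between the groups beyond the spread of the libraries: their log2 fold changes ran from -0.29 for PSAT1 to 0.20 for PHGDH, with 95% intervals that reached from -1.35 to 0.77 for PSAT1 and from -0.87 to 1.26 for PHGDH. For ASNS and CHAC1, limma gave -0.064 and -0.16, while DESeq2 on the recovered reads gave 0.29 and 0.21.

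TRIB3 (ENSG00000101255, chr20:362835-397559, plus strand), a pseudokinase that dampens ATF4 activity, did not share this pattern. It had 1188, 1535 and 1346 in the controls and 1338, 507 and 802 in UE7T-9 SHC4, and UE7T-9 SHC4 replicate 1 lay within the range of the controls. Its log2 fold change of -0.72 was the most negative of the 33 members with all libraries kept (SE 0.30, 95% interval -1.39 to -0.058, limma adjusted p = 0.31). It was -0.38 without UE7T-9 SHC4 replicate 2, where DNAJB11 was more negative at -0.43, and -1.08 without UE7T-9 SHC4 replicate 1. PPP1R15A, the phosphatase subunit that reverses eIF2 phosphorylation, had 3212, 5603 and 4331 in the controls and 3329, 2744 and 4764 in UE7T-9 SHC4. SESN2, a leucine sensor upstream of mTORC1, stayed between 2013 and 2883, and VLDLR, a lipoprotein receptor induced through PERK, between 387 and 661. The median fold change of the 9 ATF4 targets was -0.16 with 7 of them negative, and turned to 0.022 without UE7T-9 SHC4 replicate 2. It was -0.34 without UE7T-9 SHC4 replicate 1, -0.092 without UE7T-9 SHC4 replicate 3 and -0.050 without UE7T-9 Cont replicate 1, and DESeq2 and edgeR gave -0.081 and -0.075 with all libraries kept.

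Across all roles, 21 of 33 members (63.6%) had their highest value in UE7T-9 Cont replicate 2, against 15.7% of all genes tested. Among the chaperones the number was 12 of 14. The lowest value fell in UE7T-9 SHC4 replicate 2 for 17 members, of which 7 were ATF4 targets, and in UE7T-9 SHC4 replicate 1 for 9 members, of which 5 were chaperones. Of all 23040 genes tested, 3257 were lowest in UE7T-9 SHC4 replicate 2 and 3737 in UE7T-9 SHC4 replicate 1. On the log2 scale, the median distance of the chaperones from their mean over the 6 libraries was 0.32 in UE7T-9 Cont replicate 2, 0.12 in UE7T-9 Cont replicate 3 and -0.058 in UE7T-9 Cont replicate 1. In UE7T-9 SHC4 replicates 1, 2 and 3 it was -0.14, -0.17 and -0.0081. UE7T-9 SHC4 replicate 3 thus lay above UE7T-9 Cont replicate 1. Without UE7T-9 Cont replicate 2 the median fold change of the chaperones was -0.11, and without UE7T-9 Cont replicate 1 it was -0.34. For the ATF4 targets the median distance was 0.84 in UE7T-9 SHC4 replicate 1 and 0.30 in UE7T-9 Cont replicate 1, and it was negative in the other libraries. The medians of the chaperones and of the ATF4 targets were thus highest in different libraries, although 3 of the 9 ATF4 targets (TRIB3, SESN2 and PPP1R15A) were, like most chaperones, highest in UE7T-9 Cont replicate 2. UE7T-9 Cont replicate 2 had the fewest reads of the 6 libraries, and the part of depth in its high chaperone values was not tested.

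**Figure D4:**
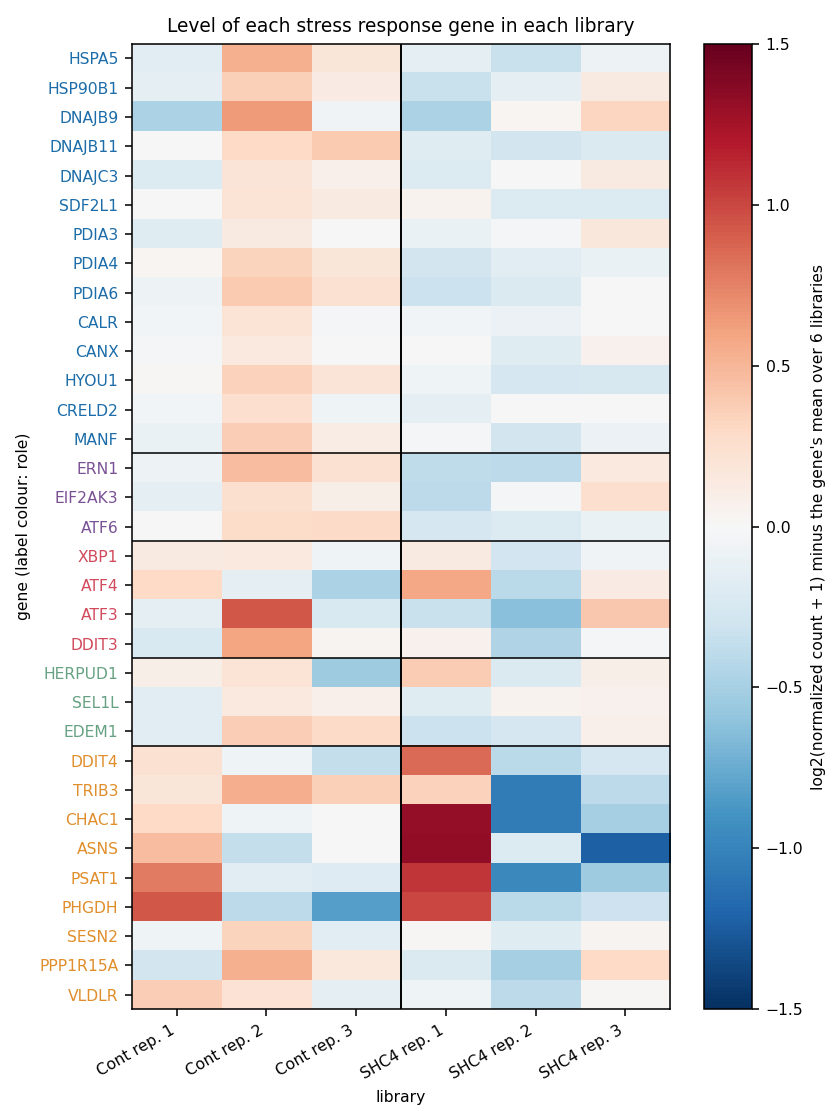
Value of log2(normalized count + 1) of each member minus its mean over the 6 libraries, with genes in rows by role and libraries in columns. The chaperones are above their mean in UE7T-9 Cont replicate 2 (median 0.32), whereas several ATF4 targets are above it in replicate 1 of both groups (medians 0.30 and 0.84).

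Genes of the same pathways outside the 33 were followed in lists chosen by function. Of 17 other ER folding factors, 11 had a negative fold change and 6 a positive one (median -0.025), and limma, edgeR and DESeq2 called 0. An unadjusted limma p below 0.05 was found for 1 gene (5.88%, against 14.4% of all genes tested). This was HSPA13, an Hsp70 relative at the ER (log2 fold change -0.44). Of 15 other degradation factors, 11 were negative and 4 positive (median -0.10), and limma and edgeR called 0. An unadjusted limma p below 0.05 was found for 3 (20%, against 14.4% of all genes tested and 18.9% of genes whose mean reached 100). These were SEL1L3, a paralog of SEL1L, NPLOC4, a cofactor of the segregase VCP, and EDEM3. SEL1L3 had 2810, 2731 and 2414 in the controls and 1828, 1021 and 1480 in UE7T-9 SHC4, without overlap. Among the 15 factors, 6 were lower and 1 was higher without overlap (46.7%, against 19.3% of all genes tested). DESeq2 called 1 of them, SEL1L3, against 4.14% of all genes it tested. SEL1L3 was lower in UE7T-9 SHC4 (DESeq2 log2 fold change -0.88, adjusted p = 0.0071), while limma gave -0.91 (SE 0.20, adjusted p = 0.136). NPLOC4 and EDEM3 had -0.32 and -0.29 in limma. Of 20 other regulators of the response and of eIF2, 17 were negative and 3 positive (median -0.085), and limma, edgeR and DESeq2 called 0. EIF2S1 (the alpha subunit of eIF2, -0.38) and NCK1 (an adaptor that binds PERK, 0.35) had an unadjusted limma p below 0.05 (10% of the list).

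Of 29 other ATF4 targets, 17 had a negative and 12 a positive fold change (median -0.10), and limma and edgeR called 0. An unadjusted limma p below 0.05 was found for 6 (20.7%, against 14.4% of all genes tested and 18.9% of genes whose mean reached 100). DESeq2 called 3, against 4.14% of all genes it tested, and these moved in different directions. STC2, a secreted glycoprotein, had 9066, 12713 and 10247 in the controls and 15844, 18731 and 16263 in UE7T-9 SHC4, and DESeq2 called it higher (log2 fold change 0.67, adjusted p = 0.0096, against an adjusted p of 0.18 in limma). GDF15, a stress-induced cytokine, had 10995, 20314 and 12698 in the controls and 8506, 5853 and 8953 in UE7T-9 SHC4, and DESeq2 called it lower (log2 fold change -0.92, adjusted p = 0.0218, against 0.197 in limma). INHBE, an inhibin subunit, had 39.0, 28.3 and 34.4 in the controls and 13.2, 4.16 and 14.0 in UE7T-9 SHC4 (DESeq2 log2 fold change -1.72, adjusted p = 0.04997, against 0.193 in limma). The INHBE value of 4.16 in UE7T-9 SHC4 replicate 2 lay near the 2.50 that 3 reads give there. Its call thus rests on few reads and lies just below the threshold. SLC7A11, the cystine transporter, was also lower in every UE7T-9 SHC4 library than in every control (log2 fold change -0.74, adjusted p = 0.206 in limma and 0.053 in DESeq2). Of the 29 genes, 13.8% did not overlap between the groups in either direction, against 19.3% of all genes tested. The replicate 1 pattern was seen in 13 of the 29 genes (44.8%), and 16 (55.2%) had their highest value in UE7T-9 SHC4 replicate 1, against 15.9% of all genes tested. For contrast, of 14 heat shock genes of the cytosol and mitochondria, 12 had a negative fold change with a median of -0.22, as the ER chaperones had -0.23. Of these 14 genes, limma, edgeR and DESeq2 called 0. An unadjusted limma p below 0.05 was found for 3 (21.4%, against 14.4% of all genes tested and 18.9% of genes whose mean reached 100). Among the heat shock genes, 4 were lower and 1 was higher without overlap (35.7%, against 19.3% of all genes tested). Whether the heat shock genes and the ER chaperones differ was not tested.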

How the data were processed

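RNA was extracted with DNase I treatment and sequenced as NEBNext Ultra libraries. The submitters' processing notes name HISAT2 2.0.5, featureCounts 1.5.0-p3 and DESeq2. The genome build, annotation, strand setting and treatment of shared reads are not given in the sources used here. The deposited values are a signal for each gene in each library, the normalized count: the authors divided the reads of a gene by the size factor of the library. All values (100%) were whole multiples of 1 read (tolerance 0.01 reads), so reads were recovered. The floor of 3 reads covers counting error only, while the 95% intervals of fold changes come from limma and the spread between libraries.

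The files were compared with limma 3.58.1 in R 4.3.3 (trend, log2(normalized count + 1)) for the 23040 genes whose mean reached 1, and p-values were adjusted by the Benjamini-Hochberg method. edgeR 4.0.16 (quasi-likelihood) and DESeq2 1.42.0 on recovered reads, other scalings, filters and pseudocounts, a replicate block and leaving out each library were alternatives. The limma, edgeR and DESeq2 fits were tested on simulated data, counts drawn for the genes of these libraries with known changes in a set of them. Positions and exon lengths came from GENCODE 29 (GRCh38), matched by identifier for all 28181 genes, promoters from RefSeq (GRCh38.p14). Overlap and shared words of 25 bases were counted in that annotation. Every member is named. In the other lists, named genes are those with the smallest limma p, at most 3 per direction, among those with an unadjusted p below 0.05. The members and lists were chosen with earlier results of these data known. FGF21 was not analysed here.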

Additional observations from a re-analysis of the deposited data

How the results depend on the processing

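With all libraries kept, 0 members were called under every alternative run (DESeq2, edgeR, TMM normalization, library size scaling, pseudocount 0.1, no filter, a mean of at least 10, the replicate block, and a fold change threshold of 1 on the log2 scale). With single libraries left out, the number called was 0 to 1, the 1 being DNAJB11 without UE7T-9 Cont replicate 1, and the number with a positive fold change was 2 to 9. Of 264 fold changes of members with all libraries kept, 259 kept their sign and side of the threshold, and 5 changed sign: PDIA3 under library size scaling (-0.070), CHAC1 under DESeq2 (0.21) and edgeR (0.21), and ASNS under DESeq2 (0.29) and edgeR (0.30). The cause was not tested. Of 198 fold changes with a library left out, 174 kept sign and side, 1 passed the threshold and 23 changed sign, in 13 members. Their ranges were -0.33 to 0.22 for DNAJB9, -0.15 to 0.048 for DNAJC3, -0.050 to 0.11 for PDIA3, -0.27 to 0.050 for EIF2AK3, -0.041 to 0.45 for ATF4, -0.056 to 0.32 for HERPUD1, -0.13 to 0.035 for SEL1L, -0.27 to 0.36 for DDIT4, -0.85 to 0.33 for CHAC1, -0.75 to 0.53 for ASNS, -0.89 to 0.12 for PSAT1, -0.26 to 0.71 for PHGDH and -0.18 to 0.075 for SESN2. The median of the ATF4 targets ranged from -0.34 to 0.022, that of the chaperones from -0.34 to -0.11 and that of the members from -0.27 to -0.099.

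With the replicate number as a block, 0 members and 47 of all genes were called, against 15 without it. Libraries with the same number had correlations of 0.148 (number 1), 0.013 (number 2) and -0.00696 (number 3) between their deviations from the group mean. The value for number 1 was the highest between any control and any UE7T-9 SHC4 library. The next was 0.0992, for UE7T-9 Cont replicate 2 with UE7T-9 SHC4 replicate 3. The libraries numbered 2 and 3 correlated best with another number, and the numbers were not taken as pairs. With 3 libraries per group and a standard error of 0.13 to 0.58 on the log2 scale, small differences of the members were not detectable.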
